A study of Equus caballus with 21 samples.

Results

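The genes described here build, fold and export the proteins that a cell secretes, and carry the unfolded protein response of the endoplasmic reticulum. The set was a fixed list of 60 gene symbols, drawn up by function with earlier results of these data known, and 59 of them were found by symbol among the 24942 gene IDs of the deposited count table, of which 15265 had a count in any library. ATF6, a stress sensor on the list, was not analysed here. The 59 genes comprised 5 stress sensors and transcription factors, 9 chaperones of the lumen, 6 lectin chaperones and disulfide isomerases, 6 genes of degradation, 15 of targeting, translocation and signal cleavage, 4 of oligosaccharyl transfer, 7 of COPII export and 7 of COPI retrieval and cargo reception.

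The data were RNA sequencing libraries of horse endometrium, the lining of the uterus. Warmblood mares received human chorionic gonadotropin to induce ovulation, and a uterine biopsy was taken on day 12 of either a control estrous cycle without insemination (cyclic) or a cycle with insemination (pregnant). Luminal epithelium (LE, the surface facing the uterine cavity), glandular epithelium (GE) and stromal areas (S) were cut from frozen sections by laser capture microdissection, and libraries were made from 1 ng of total RNA with a kit for single cells. The labels say that a number of libraries had an additional amplification, but not which.

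There were 5 cyclic and 4 pregnant luminal, 4 cyclic and 4 pregnant glandular, and 2 cyclic and 2 pregnant stromal libraries. A letter in each label names the mare, and 5 letters occur, although 6 mares are mentioned in the study's description. Both epithelia were obtained in both states from B, C, M and U, cyclic luminal epithelium alone from J, and stroma from cyclic B and M and pregnant M and U. Because the same mares recur, n counts libraries of 1 mare each, and the replicates are animals.

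Proteins bound for secretion enter the endoplasmic reticulum through the SEC61 channel, are folded there by chaperones and disulfide isomerases, and leave in COPII vesicles, while COPI vesicles bring escaped residents back. When unfolded proteins build up, the sensors ERN1 (IRE1), EIF2AK3 (PERK) and ATF6 raise folding and degradation capacity through transcription factors such as XBP1 and ATF4. Uterine glands secrete the proteins that nourish the unattached conceptus, and in the mare the conceptus is mobile in the uterine cavity at this stage.

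Total counts ran from 136259 to 1467510 per library. Of the 59 genes, 46 to 59 had a count in a glandular, 42 to 58 in a luminal and 38 to 51 in a stromal library. Ribosomal RNA took 0.351% to 67.1% of a library's counts. Of mare M, the libraries of pregnant luminal and of cyclic glandular epithelium stood apart: the authors' smaller signal table leaves out both, their ribosomal RNA shares (0.453% and 0.351%) are the lowest of the 21, and a number of values are also given without them. Summed epithelial markers ran from 341 to 2148 CPM (counts scaled to library size) in luminal and from 883 to 15169 CPM in glandular libraries, the highest being cyclic M, and from 67.0 to 557 CPM in stroma. Summed stromal fibroblast markers ran from 618 to 5102 CPM in luminal, 314 to 1523 CPM in glandular and 4112 to 10051 CPM in stromal libraries. Libraries of 1 group correlated across genes with r of 0.394 to 0.681 (30 pairs), where genes are not independent replicates.

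The first question was how much of each compartment's messenger RNA the set takes up. In glandular epithelium the 59 genes took 1.69%, 1.73%, 1.82% and 2.57% of the counts without ribosomal RNA in the cyclic libraries of C, U, B and M, and 1.77%, 1.84%, 2.14% and 2.17% in the pregnant libraries of B, M, U and C. In luminal epithelium the share was 0.841% to 1.22% in cyclic libraries (median 1.06%, n = 5) and 0.872% to 1.12% in pregnant libraries (median 0.975%, n = 4). Stroma stood at 1.10% and 1.18% in the cyclic libraries of B and M and at 0.965% and 0.648% in the pregnant libraries of M and U. All 8 glandular libraries thus lay above all 9 luminal and all 4 stromal ones, while luminal and stromal shares overlapped.

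Some of this separation depends on the denominator. Without SEC62, the lowest glandular share was 1.45% and the highest luminal share 1.13%, and without the 10 most counted genes of each library in the total these were 1.82% and 1.27%. With ribosomal RNA kept in the total, the pregnant glandular library of mare M (51.0% ribosomal RNA) had a share of 0.902%, below the luminal maximum of 0.993%, so that the ranges overlapped. These denominators were chosen after seeing the data. In captured tissue, more secreting cells and more of these RNAs per cell cannot be told apart.

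**Figure D1:**
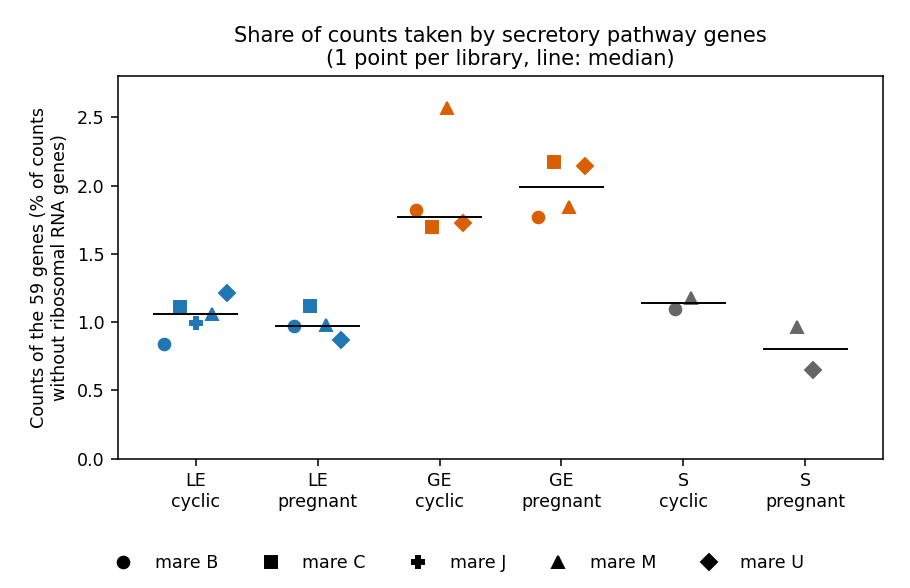
Share of the counts without ribosomal RNA taken by the 59 genes (y axis, percent) in each of the 21 libraries, by compartment and state (x axis); each point is 1 library and is marked with its mare. The glandular libraries lie between 1.69% and 2.57%, above the luminal maximum of 1.22% and the stromal maximum of 1.18%.

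The 2 epithelia were compared within the 4 mares that gave both in both states (B, C, M, U), after summing the counts of a mare's states per compartment. The sums were not weighted for depth, so the deeper library counts for more. In C and M the luminal sums were mostly cyclic and the glandular sums mostly pregnant, while the glandular sum of B was mostly cyclic. Mare C had 1382614 cyclic and 375564 pregnant luminal counts, and 600512 and 1467510 glandular ones. Mare U went the same way less strongly, with 634559 and 363394 luminal counts and 360167 and 502583 glandular ones. State and compartment are thus partly mixed in this comparison. A gene was called when its p from the quasi-likelihood test of edgeR was under 0.05 after Benjamini-Hochberg adjustment across every gene in the comparison. Glandular epithelium held more mRNA of 9 genes of the set and of none less: the stress sensor EIF2AK3 and the transcription factor XBP1, the chaperone HYOU1, the disulfide isomerases PDIA4 and P4HB, the degradation adaptor SEL1L, the translocation factor SEC62, the cargo receptor LMAN1 and the coat subunit COPA. Of the 57 genes of the set that passed the filter on low counts, 9 were called higher (15.8%), against a background of 3.65% of all genes called higher in glandular epithelium (262 of 7174; another 236 were lower). At an unadjusted p under 0.05, 19 were higher and 0 lower, against 611 higher and 475 lower of the 7174. Of the 57, 53 had positive log2 fold changes, with a median of 1.18, against 56.7% positive and a median of 0.25 over all genes tested. The 2 genes below the filter were SDF2L1 and OSTC.

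The calls were spread over the functional classes. Called genes numbered 2 of 5 tested stress sensors and transcription factors, 1 of 8 lumenal chaperones, 2 of 6 lectin chaperones and isomerases, 1 of 6 degradation genes, 1 of 15 targeting and translocation genes, 0 of 3 oligosaccharyl transfer genes, 1 of 7 COPII and 1 of 7 COPI genes. In the edgeR test the oligosaccharyl transfer genes also had 0 at an unadjusted p under 0.05, and 0 with DESeq2 after adjustment. Summed over a class, the 6 lectin chaperones and isomerases stood at 1356 to 2394 CPM in luminal and 2783 to 6874 CPM in glandular libraries, with no overlap. The lumenal chaperones summed to 490 to 1390 CPM in luminal and 1283 to 5036 CPM in glandular libraries, which overlap between 1283 and 1390 CPM. In every other class the summed ranges overlapped as well. Stress sensors and transcription factors summed to 120 to 1074 CPM in luminal and 61.7 to 1506 CPM in glandular libraries. For the targeting and translocation genes the sums were 1303 to 3172 CPM and 2596 to 20897 CPM.

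The number of calls depended on the setting. It was 9 with RLE size factors and 10 without ribosomal RNA genes, and all 9 were among these calls and among the 15 of DESeq2. It was 3 without a filter on low counts and 3 without the mare as block. Without mare M it was 5, of which 4 (EIF2AK3, P4HB, SEC62 and SEL1L) were among the 9, and leaving out her pregnant luminal and cyclic glandular library gave these values too, since no biopsy of hers then has both epithelia. Without mare B it was 3. Over single libraries with the biopsy as block it was 1, P4HB, and the calls of EIF2AK3 (3.05, adjusted p = 0.0735) and SEC62 (1.47, adjusted p = 0.0586) ended with those of the other 6. Within 1 state the design has 4 biopsies at most: P4HB was the only call in the pregnant biopsies, and 0 genes passed in the cyclic ones. Across 13 alternatives P4HB was called in 11, EIF2AK3 and SEC62 in 10, SEL1L in 6, XBP1, HYOU1 and LMAN1 in 5, and PDIA4 and COPA in 4. These tallies count separately the fit without mare M and the identical fit without her pregnant luminal and cyclic glandular library.

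EIF2AK3 (gene ID 100066488), the kinase that phosphorylates the initiation factor eIF2alpha under stress, ran from 2.60 to 79.1 CPM in the 9 luminal libraries (median 13.3) and from 13.7 to 309 CPM in the 8 glandular libraries (median 238). It was higher in the glandular library of all 8 biopsies, and 6 glandular libraries exceeded every luminal one. In the cyclic biopsy of M both epithelia had 2 counts, under the floor of 3. Its log2 fold change was 3.36 ± 0.80 (SE; edgeR adjusted p = 0.000927), the highest among the 9 called genes. In stroma it stood at 3.55 and 0 CPM in cyclic B and M and at 83.8 and 3.83 CPM in pregnant M and U. Only the 83.8 CPM lies above the level of 3 counts in its library. Tallies of biopsies and of libraries above every luminal one, here and below, were made for the set only. No share over all genes stands beside them. The 8 biopsies come from mares B, C, M and U in both states, so they are not 8 animals.

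XBP1 (100059209), the transcription factor activated by ERN1 splicing and needed by professional secretory cells, ran from 0 to 218 CPM in luminal (median 95.4) and 20.6 to 477 CPM in glandular libraries (median 247), with stroma at 3.55 to 38.3 CPM. The glandular library was higher in 8 of 8 biopsies, although the ranges overlap. In the cyclic biopsy of M this rests on 5 luminal and 3 glandular counts, the latter at the floor of 3. The log2 fold change was 2.18 ± 0.65 (edgeR adjusted p = 0.0159), and its call ended without mare M (1.53, adjusted p = 0.119) and without mare B (2.23, adjusted p = 0.242). Counts are per gene, so spliced and unspliced XBP1 mRNA are not separated.

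The other sensors and factors were not called by edgeR with all mares, and DESeq2 called DDIT3. ERN1, the kinase and nuclease that splices XBP1 mRNA, was the one gene of this class with a negative value, at -0.65 ± 0.57 (edgeR adjusted p = 0.707). It stood at 26.2 to 644 CPM in luminal and 13.7 to 318 CPM in glandular libraries. ATF4 (100070334), the transcription factor translated when eIF2alpha is phosphorylated, stood at 0 to 530 CPM in luminal, 12.7 to 506 CPM in glandular and 3.83 to 199.97 CPM in stromal libraries. It had 0.64 ± 0.74 (edgeR adjusted p = 0.834) and was -0.42 without mare M. DDIT3 (CHOP), a factor of prolonged stress, had no count in 4 luminal libraries and 363 CPM in cyclic luminal M, and 0 to 142 CPM in glandular libraries. Its log2 fold change of 4.57 ± 1.66 (edgeR adjusted p = 0.0768; DESeq2 4.81, adjusted p = 0.00144) was 0.01 without the mare as block, and without mare M it was 6.13 and called (adjusted p = 0.0325).

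**Figure D2:**
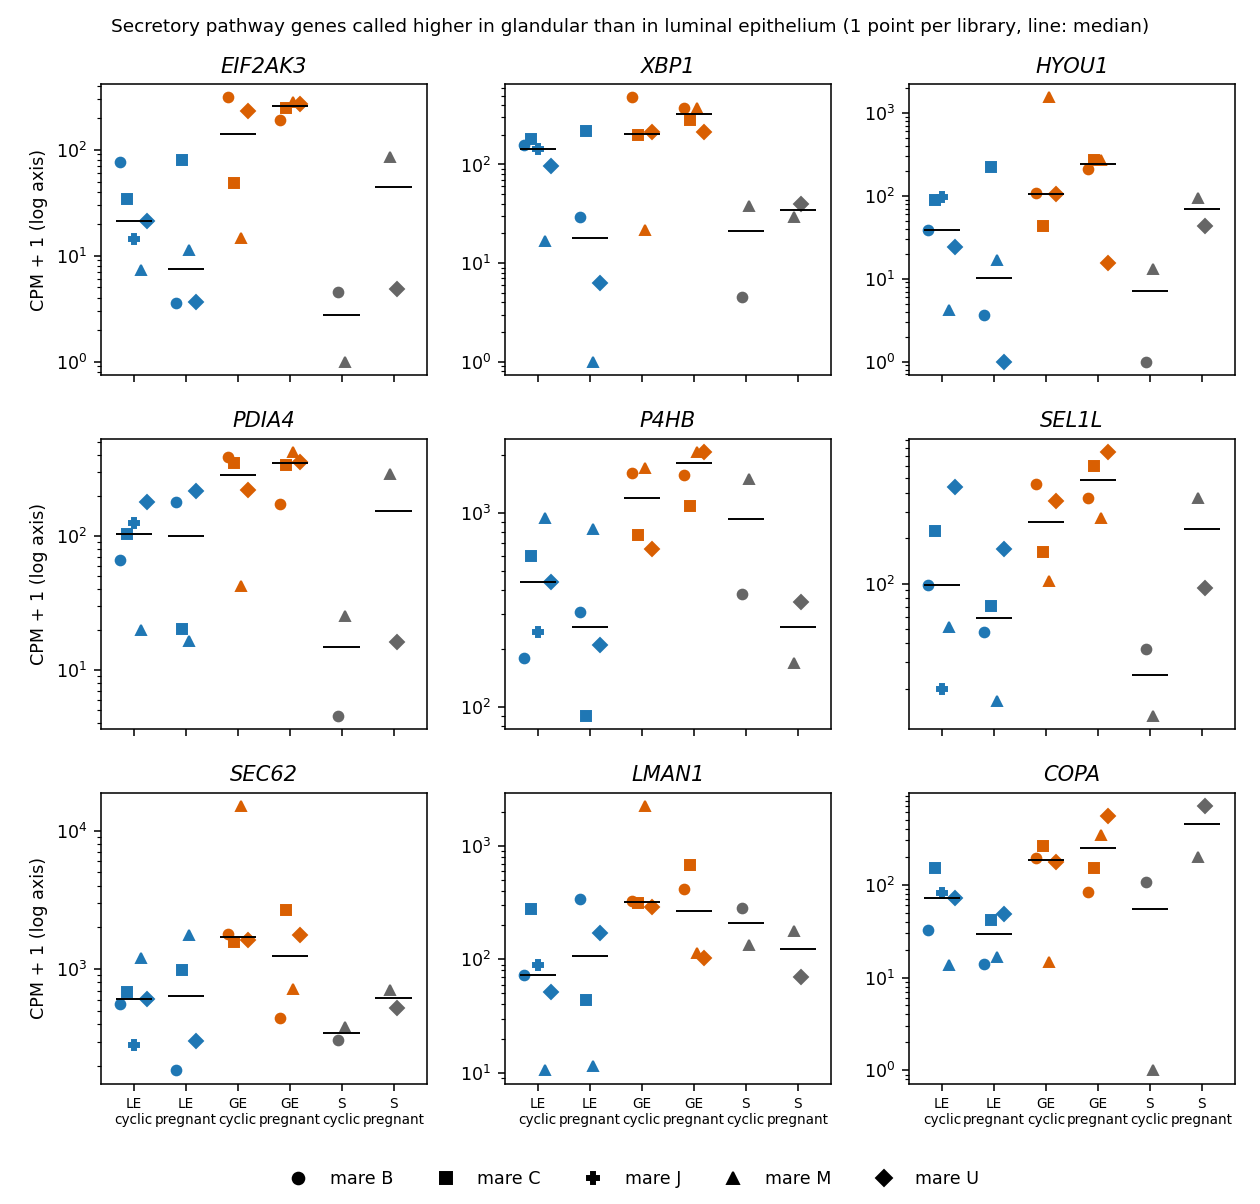
Levels of the 9 genes called higher in glandular than in luminal epithelium (y axes, CPM + 1 on a log scale) in every library of LE, GE and S (x axes), cyclic and pregnant; each point is 1 library, its shape marks the mare and lines mark group medians. The median of the 8 glandular libraries exceeds that of the 9 luminal ones for each gene, and the ranges overlap in all 9.

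Among the lumenal chaperones, HYOU1 (100071323), an exchange factor for HSPA5, was called at 2.67 ± 0.80 (edgeR adjusted p = 0.017). It ran from 0 to 223 CPM in luminal (median 23.4) and from 14.6 to 1537 CPM in glandular libraries (median 158). The highest value came from cyclic glandular M, where the next cyclic library was at 106 CPM, and 3 of the 8 glandular libraries lay above every luminal one. Its call ended without mare M (1.86, adjusted p = 0.238) and without mare B (2.74, adjusted p = 0.13). Stroma held 0, 12.2, 93.3 and 42.1 CPM in cyclic B, cyclic M, pregnant M and pregnant U.

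HSPA5 (100067235; BiP), the main chaperone of the lumen, ran from 39.3 to 343 CPM in luminal (median 177) and from 322 to 717 CPM in glandular libraries (median 456). The glandular library was higher in 8 of 8 biopsies, and 6 glandular libraries lay above every luminal one. The ranges overlap where pregnant luminal M (343.25 CPM) exceeds cyclic glandular C (343.16 CPM) and M (322 CPM), and cyclic luminal U (326 CPM) exceeds the latter. It still missed the threshold, at 1.20 ± 0.49 (edgeR adjusted p = 0.146). HSP90B1 (100033933; GRP94), the lumenal HSP90, ran from 294 to 758 CPM in luminal and 421 to 1955 CPM in glandular libraries, at 0.56 ± 0.42 (edgeR adjusted p = 0.628). DNAJB9, a cochaperone that holds ERN1 inactive, had no count in 2 luminal libraries and reached 189 CPM there, against 127 to 1173 CPM in glandular libraries (1.49 ± 0.65, edgeR adjusted p = 0.197). SDF2L1, a small cochaperone of BiP, was at or under 15.8 CPM in all libraries and had no count in stroma.

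P4HB (100055188), protein disulfide isomerase, was called most often across the alternatives. It ran from 88.7 to 945 CPM in luminal (median 307) and from 650 to 2067 CPM in glandular libraries (median 1585). It was higher in 8 of 8 biopsies, and 6 glandular libraries lay above every luminal one (1.72 ± 0.41, edgeR adjusted p = 0.000915). Stroma spread from 168 to 1492 CPM, across both epithelia. Without mare B the value was 1.40 and not called (adjusted p = 0.123).

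PDIA4 (100060535), a related isomerase, ran from 15.6 to 217 CPM in luminal (median 103) and 41.2 to 423 CPM in glandular libraries (median 345), with 7 of 8 biopsies higher (2.003 ± 0.62, edgeR adjusted p = 0.0209). The 41.2 CPM belong to cyclic glandular M, and the call ended without mare M (1.44, adjusted p = 0.129), without B (2.24, adjusted p = 0.134) and without C (1.97, adjusted p = 0.189). CALR, the soluble lectin chaperone, was next below the threshold, at 1.34 ± 0.46 (edgeR adjusted p = 0.0513; 0.78 without mare M), with 60.02 to 636 CPM in luminal and 319 to 2203 CPM in glandular libraries. CANX (100067402), its membrane-bound relative, was higher in 8 of 8 biopsies, with 458 to 1161 CPM in luminal and 854 to 2868 CPM in glandular libraries, but was not called (0.78 ± 0.39, edgeR adjusted p = 0.311). PDIA3, the isomerase that works with both lectins, stood at 0.17 ± 0.48 (adjusted p = 0.957).

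Of the degradation genes, SEL1L (100052711), the adaptor of the SYVN1 ubiquitin ligase, ran from 15.6 to 439 CPM in luminal (median 69.5) and 103 to 749 CPM in glandular libraries (median 361). It was higher in 6 of 8 biopsies, 4 of 4 pregnant and 2 of 4 cyclic ones (1.81 ± 0.54, edgeR adjusted p = 0.0155). Its call ended without mare B (1.58, adjusted p = 0.275) and without mare C (1.95, adjusted p = 0.104). Its partner SYVN1 stood at 0.75 ± 1.35 and HERPUD1, a stress-induced membrane protein of that complex, at 0.01 ± 0.57 (edgeR adjusted p = 0.921 and 0.998). DERL1, DERL2 and EDEM1, which move or mark misfolded proteins for removal, were positive at 0.76, 2.08 and 1.67 with adjusted p of 0.666 or more.

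SEC62 (100063496), a membrane protein that helps short precursors into the SEC61 channel, had the smallest p of the set and the most counts of its class. Luminal libraries ran from 185 to 1773 CPM (median 608) and glandular libraries from 440 to 14956 CPM (median 1695). Cyclic glandular B, C and U stood at 1781, 1567 and 1630 CPM and M at 14956 CPM; pregnant glandular B, C, M and U stood at 440, 2681, 713 and 1759 CPM. It was higher in 7 of 8 biopsies (1.67 ± 0.37, edgeR adjusted p = 0.00025), and without mare M it was 1.82 and still called (adjusted p = 0.00048). In stroma it stood at 305 to 703 CPM. SEC63 (100072096), its partner, was higher in 8 of 8 biopsies, with 87.1 to 364 CPM in luminal and 241 to 629 CPM in glandular libraries, and was not called (0.78 ± 0.53, edgeR adjusted p = 0.555).

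The other translocation genes were not called by edgeR, while DESeq2 called SPCS3, SSR3 and SSR4, and 14 of the 15 in this class had positive values. The channel subunit SEC61A1 stood at 1.18 ± 0.63, and the signal peptidase subunit SPCS3 at 1.90 ± 0.70 and the translocon-associated SSR3 at 1.54 ± 0.62 came nearest by edgeR (adjusted p = 0.368, 0.0803 and 0.13; for SPCS3 and SSR3, DESeq2 adjusted p = 0.0205 and 0.0454). SSR4, of the same complex as SSR3, stood at 2.96 ± 1.57 (edgeR adjusted p = 0.368; DESeq2 adjusted p = 0.0499) and at 1.69 without mare M. SRP9, of the signal recognition particle, was the negative one at -0.09 ± 1.07. SPCS1 (100629294), a further signal peptidase subunit, ran from 3.16 to 283 CPM in luminal and 29.3 to 2381 CPM in glandular libraries, the highest again cyclic M (0.90 ± 0.68, adjusted p = 0.632; 0.42 without mare M). RPN1 (100054642), a ribophorin of the oligosaccharyltransferase and the most counted gene of that class, stood at 13.1 to 335 CPM in luminal and 0 to 412 CPM in glandular libraries (0.43 ± 0.64, adjusted p = 0.894), and its sign turned without mare U (-0.03).

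In vesicle transport, LMAN1 (100050262), the lectin that loads glycoproteins such as coagulation factors into COPII vesicles, ran from 9.48 to 338 CPM in luminal (median 71.8) and 102 to 2243 CPM in glandular libraries (median 319). The 2243 CPM came from cyclic M, with 313, 324 and 288 CPM in cyclic C, B and U (1.97 ± 0.58, edgeR adjusted p = 0.0143). Without mare M the value was 1.18 and not called (adjusted p = 0.172), and without mare C it was 2.21 (adjusted p = 0.114). No COPII coat gene was called by edgeR, and DESeq2 called 1, SEC23B. SEC23B, an inner coat subunit, stood at 0 to 49.4 CPM in luminal and 0 to 151 CPM in glandular libraries, higher in 7 of 8 biopsies (2.63 ± 1.37, edgeR adjusted p = 0.35; DESeq2 2.56, adjusted p = 0.0313). SEC31A (100052018), the outer coat, stood at -0.32 ± 0.55, SEC23A, the other inner coat gene, at -0.30 ± 1.41 and SAR1A (100063421), the GTPase that starts coat assembly, at 0.28 ± 0.63 (edgeR adjusted p = 0.916, 0.978 and 0.939).

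COPA (100053719), the alpha subunit of the COPI coat, ran from 12.6 to 149 CPM in luminal (median 40.8) and 13.7 to 544 CPM in glandular libraries (median 184), with 6 glandular libraries above every luminal one and 8 of 8 biopsies higher (2.51 ± 0.74, edgeR adjusted p = 0.0151). In the cyclic biopsy of M this rests on 4 luminal and 2 glandular counts, the latter under the floor of 3. Its call ended without mare M (2.02, adjusted p = 0.082), without B (2.43, adjusted p = 0.162) and without U (2.51, adjusted p = 0.125). COPB1, the beta subunit, stood at 0.27 ± 0.71 (adjusted p = 0.951). TMED2 (100061043), a p24 cargo receptor, ran from 0 to 278 CPM in luminal and 88.9 to 1605 CPM in glandular libraries (0.75 ± 0.58, adjusted p = 0.642), again highest in cyclic M, and was 0.58 without mare M. The KDEL receptors, which return lumenal proteins, were positive and not called (0.29, 0.75 and 2.75 for KDELR1, KDELR2 and KDELR3, with adjusted p of 0.608 to 0.965).

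**Figure D3:**
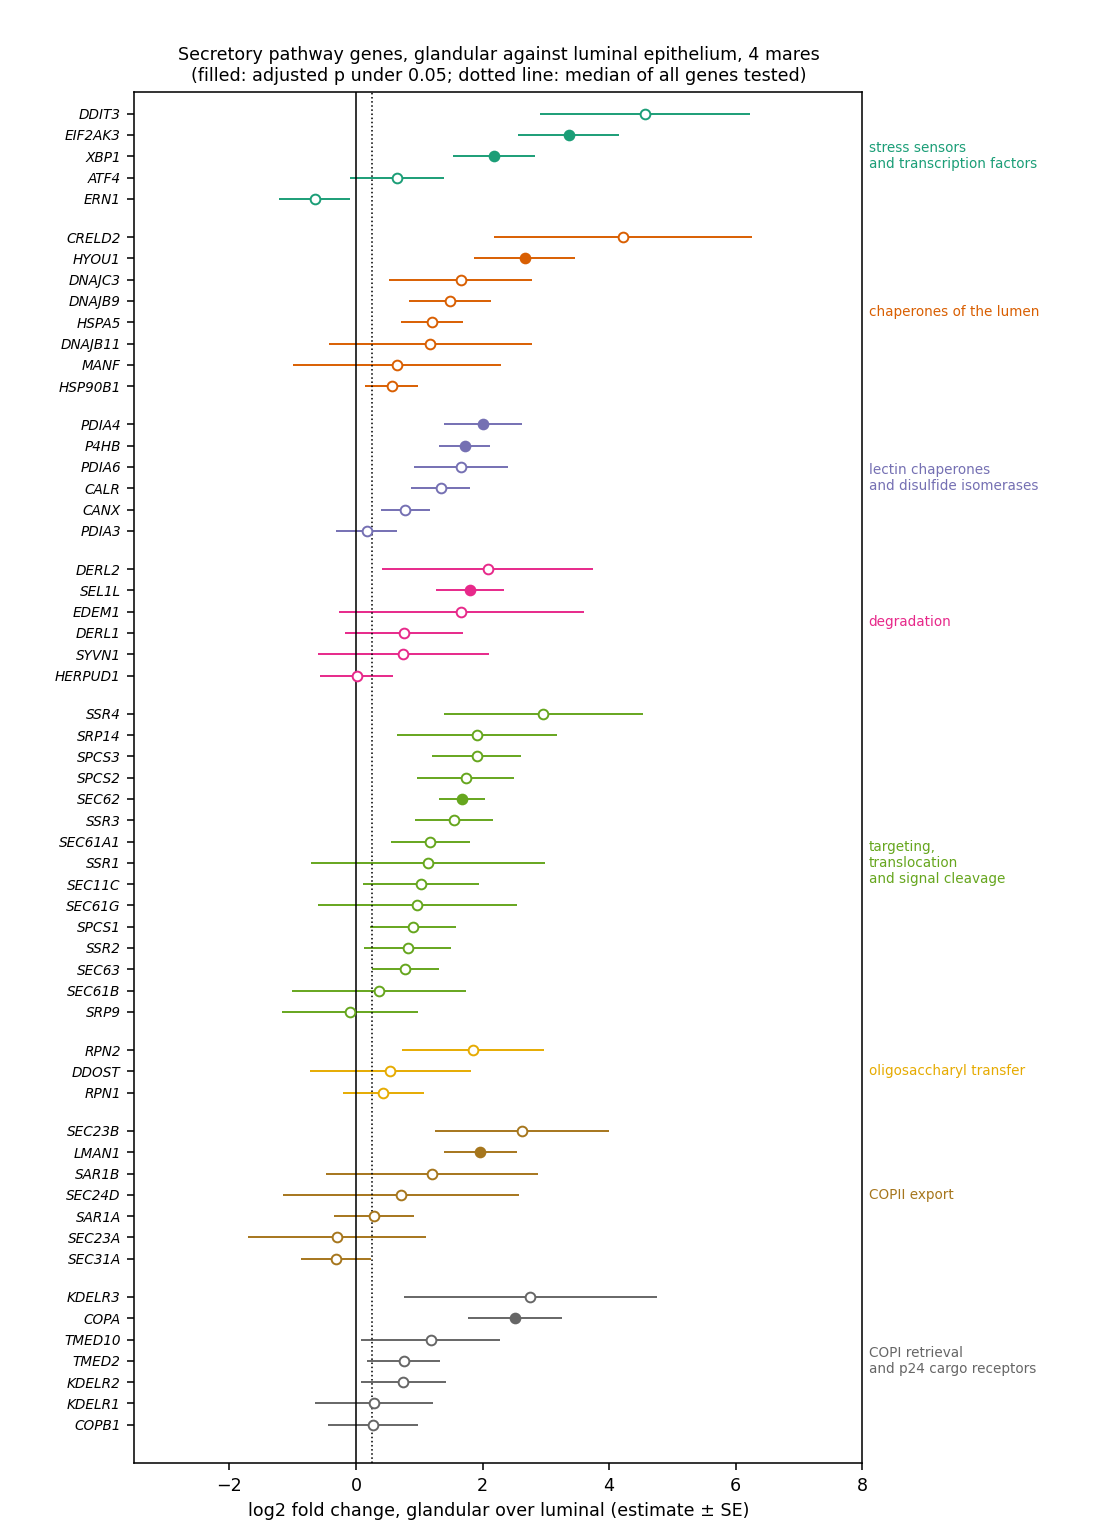
Log2 fold change, glandular against luminal epithelium (x axis), with SE bars for the 57 genes tested, grouped by class (y axis); filled points passed the threshold. Of the 57 points, 53 lie right of 0, and the dotted line marks the median of all genes tested, 0.25.

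Other genes of the pathway were taken from 5 lists, which hold 108 genes of the table outside the set. Of 90 tested, 6 were called higher (6.67%) and 0 lower in glandular epithelium, against 3.65% of all genes called higher and 15.8% of the set. The median log2 fold change of the 90 was 0.81, against 0.25 over all genes tested and 1.18 over the set. The 5 with the smallest p were SRPRA and SRPRB, the receptor of the signal recognition particle (2.84 ± 0.70 and 3.32 ± 1.10), the prolyl isomerase PPIB (2.62 ± 0.76), the SNARE protein SEC22B (1.82 ± 0.53) and the cargo receptor MIA2 (2.997 ± 0.999), with edgeR adjusted p of 0.00191 to 0.0417. By list, 1 of 13 tested folding enzymes, 2 of 21 targeting and glycan transfer genes and 3 of 35 transport genes were called, and 0 of 9 stress signalling and 0 of 12 degradation genes. For the last lists edgeR gave 1 gene each at an unadjusted p under 0.05, both higher. The stress signalling list had 4 positive and 5 negative values with a median of -0.12, below that of all genes. The degradation list had 9 positive and 3 negative values with a median of 0.68. In the targeting list edgeR gave 5 genes higher and 1 lower at an unadjusted p under 0.05.

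Markers of other cells were measured beside this comparison. Plasma cells are rich in these genes, and their markers MZB1, TNFRSF17 and POU2AF1 had no count in any group; the 6 plasma cell markers summed to 0 to 424 CPM in luminal and 0 to 378 CPM in glandular libraries. Ciliated cell markers summed to 130 to 2168 CPM in luminal and 4.88 to 539 CPM in glandular libraries, all 5 having counts in both. T and NK cell markers summed to 22.1 to 215 CPM in luminal and 0 to 46.0 CPM in glandular libraries, with NKG7 at 0 in all groups. Stromal fibroblast markers are given above. The part of ciliated, lymphoid and stromal RNA in the difference between the epithelia was not tested.

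Stroma was compared with each epithelium over the biopsies of mares B, M and U that gave both compartments, so that the comparisons share stromal libraries. Against luminal epithelium 0 of 35 tested genes were called by edgeR (background 1.74%, 61 of 3512 genes in either direction), and 0 had an unadjusted p under 0.05. DESeq2, with no adjusted p for 3 of the set, called 1, COPA (3.25 higher in stroma on the log2 scale, DESeq2 adjusted p = 0.023), which edgeR put at 3.13 ± 1.64 (adjusted p = 0.509). The median log2 fold change was -0.34, against -0.60 over all genes.

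Against glandular epithelium 0 of 52 tested genes were called by edgeR (background 1.3%, 63 of 4830 genes in either direction), with 8 lower and 0 higher in stroma at an unadjusted p under 0.05 (all genes: 324 lower, 156 higher). Of the background calls 38 of 63 were higher in stroma, and 48 of 64 with RLE size factors. The set had 46 negative values and a median of -2.52, against -1.07 over all genes. DNAJB9 had the smallest p, with 7.10, 0, 1.90 and 3.83 CPM in cyclic stroma of B and M and pregnant stroma of M and U. All 4 values are under the level of 3 counts, and all 8 glandular libraries lie at 127 CPM or above (-6.06 ± 2.005, edgeR adjusted p = 0.126). HSPA5 (-2.78 ± 1.27), P4HB (-2.12 ± 0.88), SEC62 (-2.20 ± 0.87), EIF2AK3 (-4.56 ± 2.02), XBP1 (-3.84 ± 1.67), CALR (-2.65 ± 0.97) and PDIA4 (-3.78 ± 1.70) made up the rest of the 8, with edgeR adjusted p of 0.205 to 0.389.

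Other settings called a few of these genes. DESeq2, which gave no adjusted p for 5 of the set, called 7 as lower in stroma (DNAJB9, EIF2AK3, XBP1, PDIA4, SSR4, DNAJC3 and RPN2). DNAJB9 was called without the mare as block (-6.07, edgeR adjusted p = 0.0342) and over single libraries with the biopsy as block (-6.43, adjusted p = 0.0287), and SEC62 without mare U (-2.45, adjusted p = 0.00542). Some genes were as high in stroma as in the glands. SEC23A, the inner COPII coat, reached 725 and 483 CPM in cyclic M and pregnant U against at most 111 CPM in glandular libraries, with 7.10 and 57.1 CPM in the other stromal libraries (2.34 ± 2.19, edgeR adjusted p = 0.845). PDIA6, an isomerase, stood at 153 to 499 CPM in stroma and 99.5 to 384 CPM in glandular libraries (0.23 ± 1.31, adjusted p = 0.969). These 2 genes were chosen after their values were seen.

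The second question was whether the pathway differs between pregnant and cyclic mares. In luminal epithelium 0 of 40 tested genes were called by edgeR, against a background of 0.437% of all genes (19 of 4344, either direction), with 1 higher and 1 lower at an unadjusted p under 0.05 and 0 called by DESeq2. The median log2 fold change of pregnant against cyclic was 0.11, against -0.04 over all genes. With RLE size factors the median of all genes moved to 0.11. The depth is low here: the pregnant libraries had 136259 to 440188 counts.

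DNAJC3 (100059810), the cochaperone p58IPK that restrains EIF2AK3, had 4.23, 104, 179, 82.1 and 50.2 CPM in cyclic luminal B, C, J, M and U and 0, 14.4, 5.20 and 2.62 CPM in pregnant luminal B, C, M and U. It was lower in pregnancy in all 4 mares with both states, but cyclic B lies among the pregnant values (-3.91 ± 1.84, edgeR adjusted p = 0.546). Cyclic B had 2 counts and pregnant B, M and U had 0, 1 and 1, all under the floor of 3. SAR1A had 8.45, 46.5, 91.3, 6.32 and 276 CPM in cyclic luminal B, C, J, M and U and 268, 516, 172 and 380 CPM in pregnant luminal B, C, M and U. It was higher in pregnancy in 4 of 4 mares, with cyclic U inside the pregnant range (1.96 ± 0.95, edgeR adjusted p = 0.592; 3.48 with the mare as block, adjusted p = 0.377, and 3.03 without cyclic U). SEC31A had 370, 259, 91.3, 332 and 445 CPM in cyclic luminal B, C, J, M and U and 75.4, 36.0, 5.20 and 212 CPM in pregnant luminal B, C, M and U, lower in 4 of 4 mares (-1.83 ± 0.97, adjusted p = 0.675; -2.74 with the mare as block, adjusted p = 0.569, and -2.85 without pregnant U). The cyclic M value of SAR1A (2 counts) and the pregnant M value of SEC31A (1 count) are also under the floor. ATF4 was also higher in 4 of 4 mares, and MANF, SEL1L, SRP9 and RPN2 were also lower in 4 of 4. The pregnant values of MANF and RPN2 lie under the floor. How often a gene agrees in 4 of 4 mares was not counted over all genes. HSPA5 (0.03 ± 0.96) and HSP90B1 (0.18 ± 0.68) had values near 0 with wide errors.

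In glandular epithelium 0 of 54 tested genes were called by edgeR, against a background of 0.0623% (3 of 4816, either direction), with 0 higher and 2 lower at an unadjusted p under 0.05 (all genes: 90 higher, 260 lower). DESeq2 called 0, but gave no adjusted p for 6 genes of the set, SPCS1 and SEC62 among them. The median was 0.33, against 0.07 over all genes. SPCS1 had 142, 117, 2381 and 144 CPM in cyclic glandular B, C, M and U and 85.2, 140, 42.1 and 29.3 CPM in pregnant glandular B, C, M and U. Its value of -3.15 ± 0.93 (edgeR adjusted p = 0.218) was -0.85 without cyclic M. SEC62, whose values are given above, stood at -1.79 ± 0.76 (adjusted p = 0.484) and at -0.26 without cyclic M. The size of both values thus depends on 1 library, the cyclic glandular library of mare M.

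ATF4 had 224, 61.7, 13.7 and 12.7 CPM in cyclic glandular B, C, M and U and 376, 161, 506 and 107 CPM in pregnant glandular B, C, M and U. It was higher in pregnancy in 4 of 4 mares, and the groups overlap through cyclic B (1.93 ± 1.01, edgeR adjusted p = 0.72; 3.30 without cyclic B). Its cyclic M value rests on 2 counts, under the floor of 3. HSPA5 was also higher in 4 of 4 mares, with 395, 343, 322 and 455 CPM in cyclic and 502, 456, 494 and 717 CPM in pregnant B, C, M and U. The cyclic value of U and the pregnant value of C nearly meet (455 against 456 CPM), and the test put the difference at 0.56 ± 0.77 (edgeR adjusted p = 0.999). CRELD2, EDEM1 and SSR4 were also higher in 4 of 4 mares, and SRP9 and SEC23B were lower in 4 of 4. Agreement in 4 of 4 mares was not counted over all genes. EIF2AK3 (0.72 ± 0.95), XBP1 (0.48 ± 0.87), P4HB (0.59 ± 0.71) and SEL1L (0.91 ± 0.81) had adjusted p of 0.999, and without cyclic M they stood at 0.35, 0.10, 0.79 and 0.64. HYOU1 (-1.12 ± 0.91) and LMAN1 (-1.22 ± 0.80) turned sign without cyclic M, at 1.21 and 0.08 (adjusted p of 0.909 or more with it).

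In stroma, with 2 libraries per state that share only mare M, 23 genes were tested and 0 were called by edgeR, against a background of 0% (0 of 2212), with 0 of the set at an unadjusted p under 0.05 and 0 called by DESeq2. SEC63 had 3.55 and 6.09 CPM in cyclic B and M and 261 and 146 CPM in pregnant M and U (5.41 ± 3.43, edgeR adjusted p = 0.999). HSPA5 had 7.10 and 6.09 CPM in cyclic and 164 and 199 CPM in pregnant stroma (4.73 ± 3.36, adjusted p = 0.999). The cyclic values of both genes lie under the level of 3 counts. Like COPA, they are named here for having the smallest p in this comparison. COPA had 106 and 0 CPM in cyclic B and M and 199.97 and 697 CPM in pregnant M and U (2.93 ± 2.20, adjusted p = 0.999). In mare M, the one with both states, all 3 were higher in pregnancy.

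**Figure D4:**
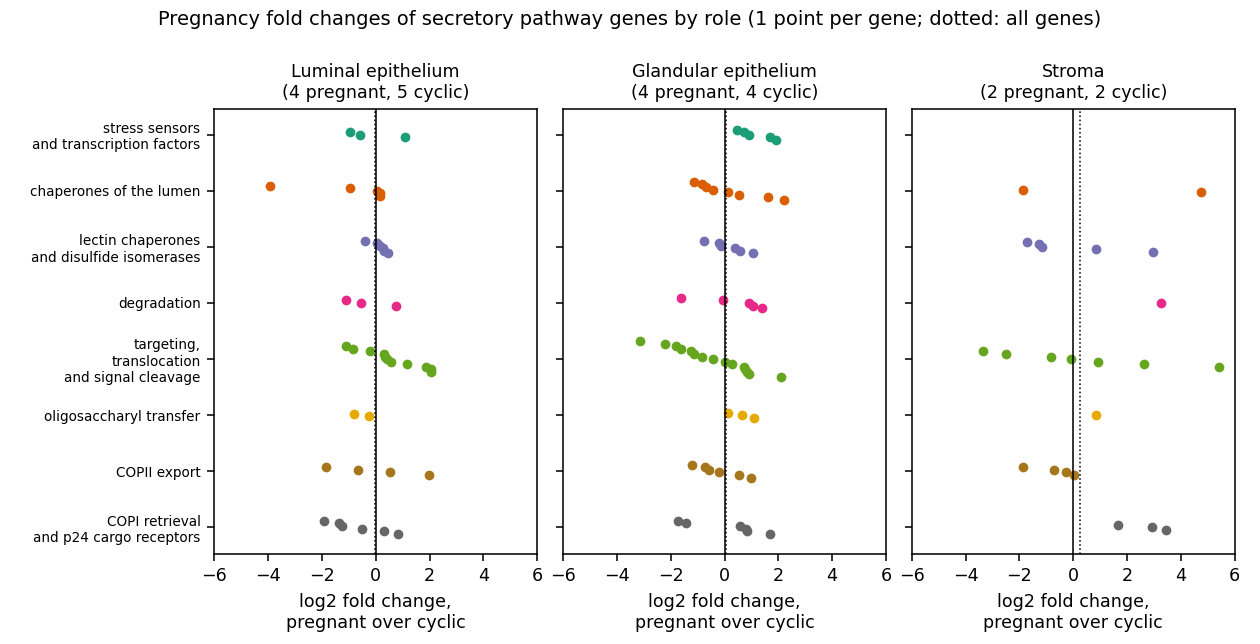
Log2 fold change, pregnant over cyclic (x axes), of each gene tested (1 point per gene) by class (y axis), in luminal epithelium, glandular epithelium and stroma; the dotted lines mark the median of all genes tested (-0.04, 0.07 and 0.26). Points lie on both sides of 0 in each compartment (22 of 40, 31 of 54 and 12 of 23 are positive), and none passed the threshold.

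Whether the pregnancy effect differs between the epithelia was tested as glandular minus luminal effect in 16 libraries with the biopsy as block. By edgeR 0 of 57 tested genes were called, against a background of 0.0145% (1 of 6884, either direction), with 0 positive and 1 negative at an unadjusted p under 0.05 and 0 called by DESeq2, which gave no adjusted p for 9. The median difference was 1.48, against 1.28 over all genes, and the latter was 0.98 with RLE size factors, so values are read against that shift. SPCS1 stood at -3.25 ± 1.65 and at -1.69 without mare M, SEC31A at 3.25 ± 1.69 and at 1.66, and XBP1 at 3.27 ± 1.75 and at 2.04 (edgeR adjusted p = 0.867 for each with all mares). For XBP1, the luminal libraries of B, M and U had 156, 15.8 and 95.4 CPM in the cycle and 28.6, 0 and 5.24 CPM in pregnancy, whereas C had 180 and 218 CPM. Pregnant luminal M and U had 0 and 2 counts, under the floor of 3. The glandular libraries of B, C, M and U had 477, 196, 20.6 and 214 CPM in the cycle and 373, 281, 370 and 212 CPM in pregnancy.

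Of the 108 pathway genes outside the set, 0 of 65 tested were called between the states in luminal, 0 of 77 in glandular and 0 of 36 in stromal libraries, and 0 of 89 in the difference of the effects. At an unadjusted p under 0.05 by edgeR, 1 was higher in luminal libraries, 1 higher and 7 lower in glandular libraries, none in stroma, and 3 positive and 1 negative in the difference. Their median log2 fold change was 0.13 in luminal and -0.14 in glandular libraries. Beside the luminal comparison, stromal fibroblast markers summed to 618 to 1734 CPM in cyclic and 828 to 5102 CPM in pregnant luminal libraries, with PDGFRA at 0 in the latter, and T and NK cell markers to 22.1 to 88.5 CPM and 39.0 to 215 CPM. Their part in these values was not tested. A p that misses the threshold does not show that the pathway was alike in both states.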

How the data were processed

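RNA of laser-captured horse endometrium was sequenced in 21 libraries. The authors deposited counts per gene ID as whole numbers, and 2 tables of signal that equal those counts divided by 1 constant per library (largest relative deviation 9.59e-15); the second leaves out 2 libraries. Trimmomatic 0.32.2 and HISAT2 2.0.3 are named per the submitters' processing notes. Not given in the sources used here are the counting tool, strand setting, build and annotation. Counts of near-identical copies and of overlapping or antisense genes are therefore uncertain. Symbols were looked up by gene ID in a RefSeq table (21420 of 24942 matched). All count columns could be mapped to a sample.

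The counts were tested with edgeR 4.0.16 (R 4.3.3, limma 3.58.1): filterByExpr with a minimum count of 10 and a minimum total of 15, TMM factors, glmQLFit and glmQLFTest, with Benjamini-Hochberg adjustment over all genes tested and a threshold of 0.05. Compartments were compared on counts summed per mare with the mare as block, states within a compartment without a block, and the difference of the pregnancy effects with the biopsy as block. The main tests of states thus leave the pairing within mares unused, and the difference treats biopsies of the same mare as separate. SE is the absolute log2 fold change divided by the square root of F. CPM values use 1 TMM scaling over all 21 libraries. DESeq2 1.42.0, RLE size factors, no filter, other blocks and left-out libraries were alternatives. The scripts were tested on simulated data. Depth was 136259 to 1467510 counts per library, and 3 counts were taken as the floor of a level. Levels are not compared between genes, since gene lengths were not used.

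Mare letters mark the same animal. Deviations from group means over 11144 genes correlated between same-lettered libraries at -0.00796 to 0.0552. The genes named were the called genes, the most counted genes of each class and the 3 with the smallest p in each comparison of states; others of the set were named after their values were seen. The members and lists were chosen with earlier results of these data known.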

Additional observations from a re-analysis of the deposited data

Results flagged for a closer look

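For 20 genes the libraries of each of the 4 epithelial groups were searched for 1 library far from the rest (80 groups of values). The rule has a nominal rate of about 1 in 20, and its chance rate for values like these was not measured. In 9 groups a library stood apart, and 5 of these concern the cyclic glandular library of mare M. SPCS1 was among the 20 genes for its small p between the states, and the size of that difference depends on this library. There SEC62 was at 14956 CPM (the next cyclic glandular library at 1781), CANX at 2868 CPM (1215), SPCS1 at 2381 CPM (144), LMAN1 at 2243 CPM (324) and HYOU1 at 1537 CPM (106). In pregnant luminal epithelium mare C stood above the others with HYOU1 at 223 CPM (the next at 15.6), XBP1 at 218 CPM (28.6) and EIF2AK3 at 79.1 CPM (10.4). In pregnant glandular epithelium mare U had SEC63 at 629 CPM (290.4).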

How the results depend on the processing

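For glandular against luminal epithelium, 9 genes of the set and 498 of all genes were called. The set's count was 3 without a filter, 15 with DESeq2 (1009 of all genes), 5 without the libraries absent from the smaller table, 3 with no replicate block, 1 with the biopsy as block (247), 0 in cyclic biopsies (120), 1 in pregnant biopsies (130), and 3 to 8 with 1 mare left out (230 to 411). SAR1A turned to -0.010 without the absent libraries, -0.24 with the biopsy as block and -1.27 in pregnant biopsies, and ran from -0.010 to 0.70 with 1 mare left out. SEC31A turned to 1.68 and SPCS1 to -1.21 in pregnant biopsies, RPN1 to -0.50 in cyclic biopsies (-0.031 to 0.86 with 1 mare left out), and ATF4 to -0.42 without the absent libraries (-0.42 to 1.72). Stroma against luminal epithelium gave 61 calls over all genes, 29 without a filter, 474 with DESeq2 (1 of the set), 34 with the biopsy as block and 18 to 36 with 1 mare left out. Stroma against glandular epithelium gave 63, 20 without a filter, 526 with DESeq2 (7 of the set), 99 with no replicate block (1 of the set), 1 of the set with the biopsy as block, and 0 to 45 with 1 mare left out (0 to 1 of the set). Pregnancy in luminal epithelium gave 19 over all genes, 12 without a filter, 83 with DESeq2, 37 without the absent library, 12 with the replicate block and 2 to 37 with 1 library left out. In glandular epithelium it gave 3, 0 with RLE size factors, DESeq2 or the replicate block, 34 without a filter, 5 without the absent library and 0 to 28 with 1 library left out. In stroma it gave 0, 2 without a filter and 0 to 2 with 1 library left out; a paired fit could not be made, since only mare M gave both states. The difference of the effects gave 1, 78 with DESeq2, 0 without ribosomal RNA genes and 8 with no replicate block. The set's count stayed 0 in these pregnancy comparisons under each alternative run. With ribosomal RNA kept in the total, the lowest glandular share was 0.902% and the highest luminal share 0.993%. The causes were not tested. Cyclic stroma had at most 241309 counts per library, where 3 counts are the level of many genes of the set.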
